A study of Danio rerio with 23 samples.

Results

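The effect of losing the glucocorticoid receptor on the ovary was examined at 6 months of age, in 6 libraries from nr3c1 -/- females (GRKO) and 6 from wild-type females (WT). These 12 were selected by title, which gives genotype and age, out of 23 libraries of zebrafish (Danio rerio) ovary in all, the others being of fish aged 3 months. The mutants lack the receptor in the whole body and not in the ovary alone, the labels name no treatment besides age, and dissected whole ovaries were sequenced after capture of polyadenylated RNA. The series asks what part receptor loss plays in ageing of the ovary. The labels do not give the nature of the mutation, the number of founders of the line or which fish each library came from, so the p-values reflect variation among libraries that could be technical in part.

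Nr3c1 encodes a receptor through which cortisol, the main glucocorticoid of fish, acts on transcription. Once bound by the hormone the receptor enters the nucleus, where it raises some genes by binding DNA directly and lowers others, partly through other transcription factors. The fish ovary holds oocytes at several stages of growth, the follicle cells around them that make steroid hormones, and connective, vascular and immune cells. Oocytes store large amounts of RNA, so whole ovary RNA is weighted towards them, and in such bulk samples fewer cells of a type and less RNA per cell cannot be told apart.

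The deposited values were estimated counts per transcript, and the 12 libraries summed to 29489146 to 37292796 counts. The files list 57775 Ensembl transcript identifiers without gene names, and 0 of them matched the name tables used, so transcripts are given by identifier. For the same reason the transcripts of nr3c1, which would check the genotype labels, and the markers of ovary cell types were not analysed here. Levels are counts per 1000000 counts of the library (CPM), scaled with edgeR's TMM factors, and a transcript is called different where the edgeR quasi-likelihood test gave a Benjamini-Hochberg adjusted p under 0.05.

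The genotypes separated, but WT libraries 1 and 2 and GRKO library 12 stood apart from their own groups. On the first principal component of log2 CPM, with 30.7% of the variance, the WT libraries lay at -112 to -28.5 and the GRKO libraries at 15 to 186. WT libraries 1 and 2 lay nearest to the mutants on this axis, and stood at 112 and 121 on the second component (15% of the variance), where the other WT libraries were at 44.7 or below. GRKO libraries 10 and 12 lay farthest out on the first component, at 95.5 and 186. Library 10 was nearer there to GRKO library 2, at 68, than to library 12. Correlations across transcripts ranged from 0.866 to 0.945 between WT libraries, from 0.859 to 0.937 between GRKO libraries and from 0.775 to 0.896 between the genotypes. The 6 pairs of GRKO library 12 with WT reached 0.843 at most.

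**Figure D1:**
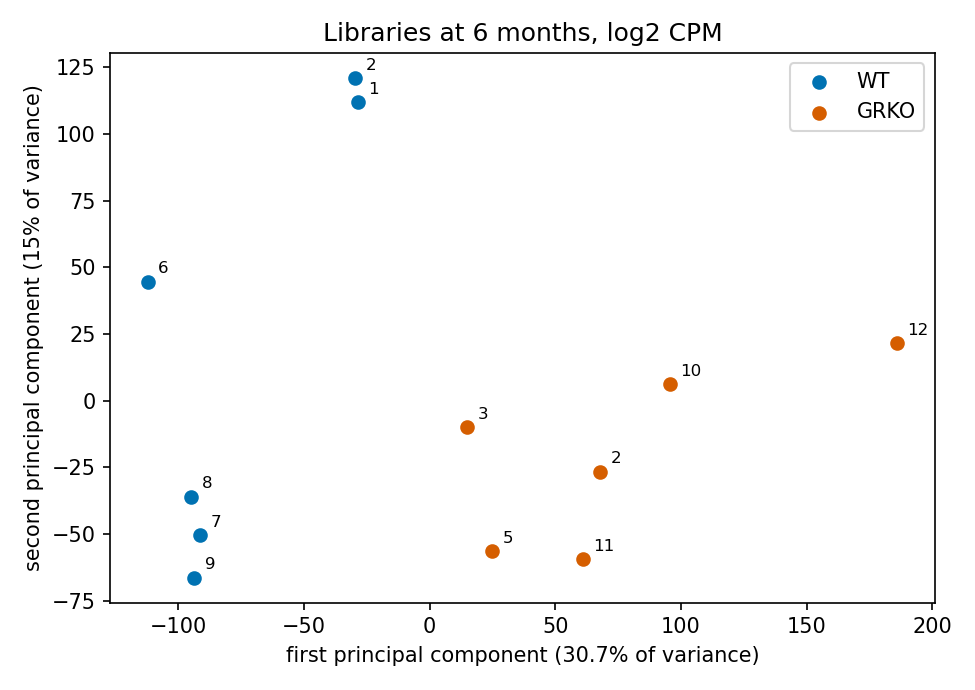
Each point is 1 ovary library at 6 months, marked with its library number, on the first (x axis) and second (y axis) principal component of log2 CPM over the tested transcripts. WT (blue) lies between -112 and -28.5 and GRKO (orange) between 15 and 186 on the x axis, with WT libraries 1 and 2 at 112 and 121 on the y axis.

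GRKO libraries 10 and 12 also carried transcripts that the other 10 libraries nearly lacked. Among tested transcripts of 10 CPM or more on average, 47 were at least 8-fold higher and 16 at least 8-fold lower in GRKO without passing the test. For 35 of the 47, libraries 10 and 12 lay above all others. Together the 35 made up 5.7% of the scaled counts in GRKO library 10 and 5.95% in GRKO library 12, against 0.00243% to 0.0994% in each of the other libraries. The most abundant of them averaged 4070 CPM over the 12 libraries. Of the 31218 transcripts outside the test, 279 were at 1 CPM or more in both libraries and under 1 CPM in each of the others. Of the 279, 53 were at 10 CPM or more in both. The 279 summed to 2208 CPM in GRKO library 10 and 3662 CPM in GRKO library 12, and to 20.1 to 48 CPM elsewhere. The same rule gave 33 for WT libraries 1 and 2. The 35 and the 279 were chosen for being higher in this pair, so the contrast in their sums follows largely from the choice. The part of these transcripts in the results below was not tested, and the counts of calls by size, abundance and separation are given with and without the pair.

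Loss of the receptor went with changes in both directions in the ovary at 6 months. The test covered 26557 transcripts and called 1380 (5.2%), 594 of them (2.24%) higher and 786 (2.96%) lower in GRKO. Over all calls the lower transcripts differed by more, with a median log2 fold change of -1.50, or 2.83-fold, against 0.814, or 1.76-fold, for the higher ones. Transcripts with a count of 0 in a whole group were also set at the fold that 3 counts over that group would allow. These folds stay beyond the medians, so the medians had to remain the same. Within classes of mean CPM the medians of higher and lower calls lay closer in size. They were 0.489 and -0.538 over 100 CPM, and 0.614 and -0.787 between 10 and 100 CPM. Between 1 and 10 CPM they were 1.54 and -1.78, and under 1 CPM 2.21 and -2.41. Lower calls were more often under 10 CPM, where folds were larger. At a stricter adjusted p under 0.01, 138 were higher and 241 lower, and under 0.001 the numbers were 32 and 65. Over all tested transcripts the median log2 fold change was -0.0356, and 23.5% had an unadjusted p under 0.05. Without GRKO libraries 10 and 12 the test covered 28460 transcripts and called 562, 203 higher and 359 lower. Of these 483 were among the 1380, all with the same sign. All 1380 kept the sign of their fold change without the pair, with medians of 0.745 and -1.45 for the higher and the lower ones. As they were called on libraries that this fit shares, the kept signs follow largely from the choice.

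**Figure D2:**
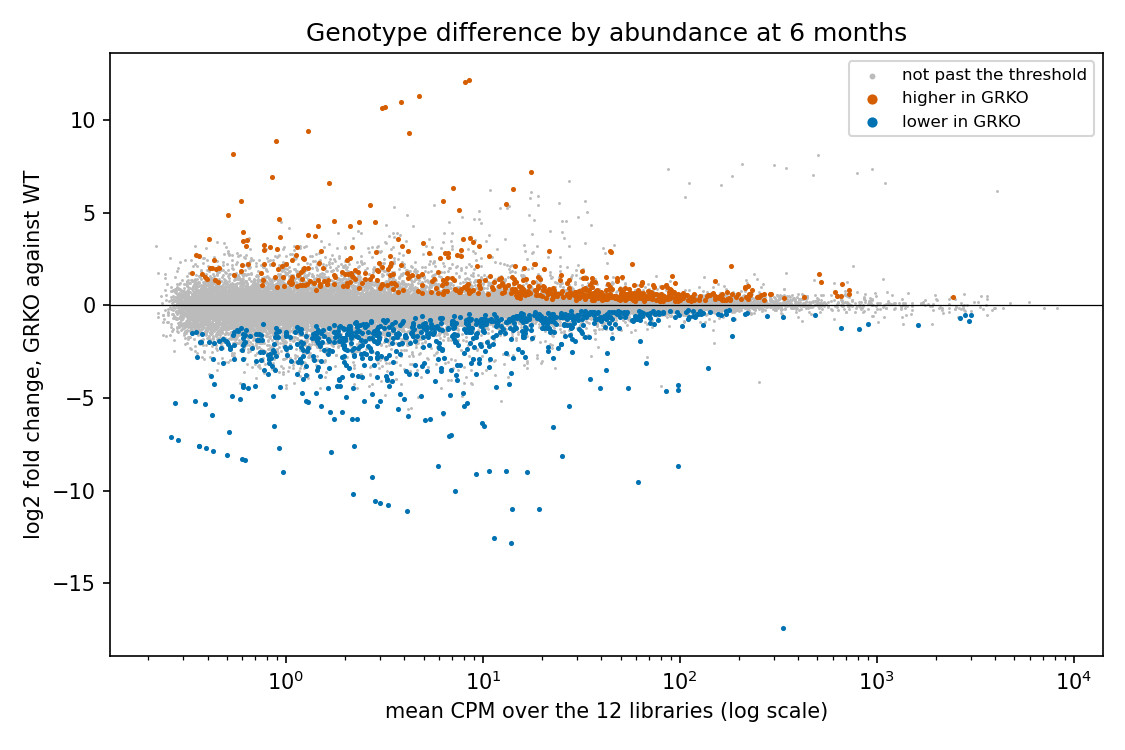
Each point is 1 of 26557 tested transcripts, with its mean CPM over the 12 libraries (x axis, log scale) and its log2 fold change in GRKO against WT (y axis). The 594 called higher are orange, the 786 called lower are blue, and the grey points above 5 on the y axis near and beyond 100 CPM lie among the transcripts not called.

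Most called transcripts changed little in the higher group and more in the lower group. Under 2-fold changes made up 346 of the 594 higher and 246 of the 786 lower transcripts. Changes of 2- to 8-fold numbered 200 higher and 387 lower, and changes of 8-fold or more numbered 48 higher and 153 lower. Without GRKO libraries 10 and 12 the calls of these sizes were 107 higher and 76 lower, 60 higher and 142 lower, and 36 higher and 141 lower. Among large changes at higher abundance, lower transcripts were in excess among the calls. Without GRKO libraries 10 and 12 they were also in excess among those not called, a set that may share transcripts with those calls. At 10 CPM or more on average, 3 called transcripts were at least 8-fold higher and 27 at least 8-fold lower. With those not called the numbers over all 12 libraries were 50 and 43, so that higher ones were in slight excess. Without the pair, uncalled transcripts of this size and abundance numbered 5 higher and 34 lower, and the called ones were not counted. How many of the uncalled ones had been called over all 12 libraries was not counted either. So 5 and 34 are not a separate excess, and cannot be set against 50 and 43, which include calls. The small changes were found in more abundant transcripts, with a median of 47.2 CPM for those raised by less than 2-fold and 2.14 CPM for those raised by 8-fold or more.

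The balance of directions among called transcripts differed between classes of abundance. Above a mean of 100 CPM, 75 of 112 calls (67%) were on the higher side. Between 10 and 100 CPM, 310 of 581 were higher (53.4%), between 1 and 10 CPM 165 of 546 (30.2%), and under 1 CPM 44 of 141 (31.2%). The median log2 fold change of all tested transcripts, called or not, was 0.0694 over 100 CPM and 0.0209 between 10 and 100 CPM. It was -0.145 between 1 and 10 CPM and -0.134 under 1 CPM. Over 24 alternative settings, which included other scalings, other tools and leaving out each library, most calls over 100 CPM were higher in GRKO in all 24 (58.6% to 80.6%), and most calls between 1 and 10 CPM were lower in all 24 (26.8% to 41.2% higher). The 10 to 100 CPM class had more higher than lower calls in 19 of the 24, and the class under 1 CPM had more lower calls in 23, the exception being a filter that left 9 calls there. Without GRKO libraries 10 and 12, 24 of 38 calls over 100 CPM were higher (63.2%), 109 of 221 between 10 and 100 CPM (49.3%), 59 of 220 between 1 and 10 CPM (26.8%) and 7 of 44 under 1 CPM (15.9%). In every alternative the classes were those of the mean over all 12 libraries, the pair included. Calls of transcripts not tested in the main fit were left out of them. Of the 200 most abundant transcripts 14 were called, 6 higher and 8 lower, or 1 and 4 without the pair. These calls are too few to set their balance against that of all calls over 100 CPM.

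**Figure D3:**
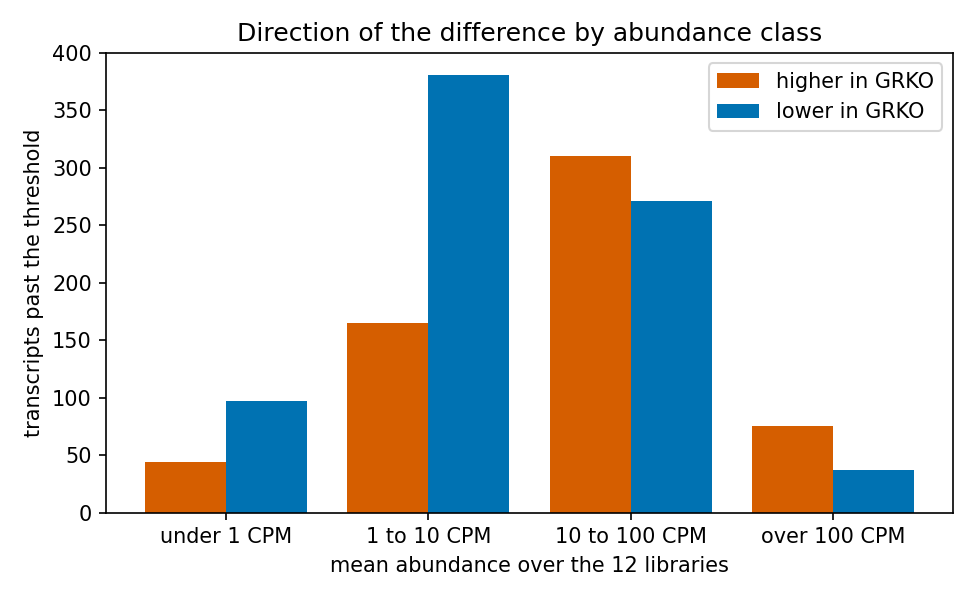
Bars give the number of transcripts called higher (orange) or lower (blue) in GRKO at 6 months (y axis) in 4 classes of mean CPM over the 12 libraries (x axis). Lower calls outnumber higher ones 381 to 165 between 1 and 10 CPM, and higher calls outnumber lower ones 75 to 37 over 100 CPM.

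The share of transcripts called was lowest where counts were low. It was 2.52% under 1 CPM, 5.38% between 1 and 10 CPM, 6.5% between 10 and 100 CPM and 5.99% over 100 CPM. The spread within a genotype fell along the same classes, from a median SD of 0.807 in WT and 0.74 in GRKO (log2 CPM) under 1 CPM to 0.162 and 0.19 over 100 CPM.

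In summed CPM, which is relative to the scaled library total, the called transcripts lost more than they gained. Their loss was also more concentrated than their gain. The differences between group means of the lower transcripts summed to 18105 CPM, of which the 10 largest made up 49%. Those of the higher transcripts summed to 14732 CPM, with 26.8% in the 10 largest. Without GRKO libraries 10 and 12 the sums over that fit's calls were 8873 CPM lost, 58.9% of it in the 10 largest, and 5428 CPM gained, 35.7% of it in the 10 largest. This balance was described for the called transcripts only. The 35 raised in GRKO libraries 10 and 12 without a call added 19235 CPM to the GRKO mean. Over all tested transcripts gains summed to 124019 CPM (16.2% in the 10 largest) and losses to 83056 CPM (14.1%). The net of those sums is set by the TMM factors, so it does not tell whether RNA was gained or lost. The higher transcripts together held 2.45% to 2.73% of the counts of a WT library and 3.71% to 4.04% of those of a GRKO library. The lower transcripts held 3.77% to 4.24% in WT and 1.86% to 2.3% in GRKO. GRKO library 3 was the least changed mutant library on both sums, and GRKO libraries 10 and 12 had the lowest shares of the lower set, at 1.87% and 1.86%. These are shares of the unscaled total, which in libraries 10 and 12 also holds the transcripts that the other libraries nearly lacked. On scaled values the median log2 difference from WT over the lower set was -1.4 in GRKO library 10 and -1.59 in GRKO library 12. It was -1.37 in both GRKO library 2 and GRKO library 11. As the higher and lower sets were picked for their difference, the sums are a description without a test.

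Complete separation of the genotypes, with every GRKO library on the same side of every WT library, was seen for 656 tested transcripts on the higher side (2.47%) and 717 on the lower side (2.7%). Of the called transcripts, 421 of the 594 higher (70.9%) and 493 of the 786 lower (62.7%) were separated in this way. Among higher calls the share was 66.5% under 2-fold, 74% at 2- to 8-fold and 89.6% (43 of 48) at 8-fold or more. Among lower calls it was 60.2%, 61% and 71.2% (109 of 153) in the same order. The calls and their folds come from these same libraries, so high shares follow largely from the choice. Without GRKO libraries 10 and 12, where 4 mutants are set against 6 WT libraries, 194 of 203 higher and 338 of 359 lower calls were separated. Separation is easier to reach with fewer mutants, so these shares cannot be set against those of the 12 libraries. The number separated over all transcripts tested in that fit was not counted. A further 235 transcripts on the higher side and 224 on the lower side were separated but not called.

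The mutant libraries differed in how far they lay from WT over the called transcripts. These were chosen by a test on the same libraries, so high shares in every library follow from the choice, and the values are a description. GRKO library 3 lay above all WT libraries for 86.7% of the higher transcripts and below all of them for 81.8% of the lower ones, the smallest shares of any GRKO library. GRKO library 12 did so for 97.6% and 88.5%, the largest shares. Its median log2 difference from the WT mean was 1.11 over the higher set and -1.59 over the lower set, against 0.604 and -1.15 for GRKO library 3. Among WT libraries, library 6 differed most from the mutants, with medians of -0.967 and 1.55 from the GRKO mean.

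Some transcripts were present in 1 genotype only. None of the 6 GRKO libraries had a rounded count above 0 for 18 tested transcripts, all called lower, and none of the 6 WT libraries for 9, all called higher. The expression filter asks for counts in 6 libraries, so any such transcript was counted in every library of the other genotype and had to differ. Of the 18, 9 were at 1 CPM or more in every WT library, with WT means of 1.94 to 665 CPM and a median of 6.64 CPM, the next highest mean being 27.7 CPM. Of the 9, 6 were at 1 CPM or more in every GRKO library, with GRKO means of 1.78 to 17.1 CPM and a median of 8.6 CPM.

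Among transcripts lower in GRKO, ENSDART00000183657.1 had the largest fold. In WT it ranged from 510 CPM in library 8 to 780 CPM in library 9, with a median of 675 CPM, and ranked at place 170 in WT abundance. No mutant library had a rounded count above 0, against 17596 to 27716 counts in WT. The genotypes did not overlap at any level, and no WT library stood near the mutants. With WT at 665 ± 113 CPM (SD, n = 6) and GRKO set at 3 counts over the group, the mutant level was at least 43500-fold lower (edgeR, adjusted p = 3.39e-07). With 0 counts in GRKO, the size of this fold follows the WT level. The transcript had to differ once it passed the filter, so the p-value and the lack of overlap add no support. In fish of 3 months the transcript stood at 551 ± 393 CPM in WT (n = 5, lowest library 133 CPM) and at 0.219 ± 0.302 CPM in GRKO (n = 6).

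ENSDART00000188155.1 had the smallest p among lower transcripts that were counted in all 12 libraries at 10 CPM or more on average with no overlap of the genotypes. In WT it ranged from 65.9 to 150 CPM with a median of 131 CPM, and in GRKO from 0.0758 to 0.348 CPM with a median of 0.0919 CPM. WT library 6 was low for its group and the other WT libraries lay at 121 CPM or more, while no GRKO library held more than 12 counts. The means were 123 ± 29.8 and 0.162 ± 0.121 CPM (SD, n = 6 each), and the log2 fold change was -9.53 (SE 0.39, edgeR adjusted p = 1.93e-07). The 3 months libraries held 94.2 to 134 CPM in WT (n = 5) and 0 to 0.253 CPM in GRKO (n = 6).

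ENSDART00000142741.2 had the largest fold among transcripts that were higher in GRKO. It ranged from 13 to 25 CPM in the mutants, with a median of 15.9 CPM and 376 to 791 counts per library. Its rounded count was 0 in all 6 WT libraries, so the groups did not overlap, and GRKO library 2 was the highest of the mutants. With GRKO at 17.1 ± 4.55 CPM (SD, n = 6) and WT set at 3 counts over the group, it was at least 1160-fold higher (edgeR, adjusted p = 9.29e-06). This transcript, too, had to differ once past the filter, so the p-value and the lack of overlap add no support. At 3 months its values were 0 to 1.08 CPM in WT (n = 5) and 0 to 26.5 CPM in GRKO (n = 6), so that the genotypes overlapped there.

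ENSDART00000054442.6 had the smallest p among higher transcripts counted in all 12 libraries at 10 CPM or more on average with no overlap. Its level in WT was 3.08 to 5.87 CPM with a median of 5.17 CPM, and in GRKO 29.3 to 58.4 CPM with a median of 36.1 CPM. GRKO library 12 was the highest, and the other 5 mutants lay between 29.3 and 39.6 CPM, well above every WT library. The means were 4.92 ± 1.06 and 38.4 ± 10.5 CPM (SD, n = 6 each), and the log2 fold change was 2.96 (SE 0.21, edgeR adjusted p = 8.84e-06), or 7.79-fold. At 3 months it ranged from 2.79 to 8.67 CPM in WT (n = 5) and from 22.2 to 41.3 CPM in GRKO (n = 6).

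**Figure D4:**
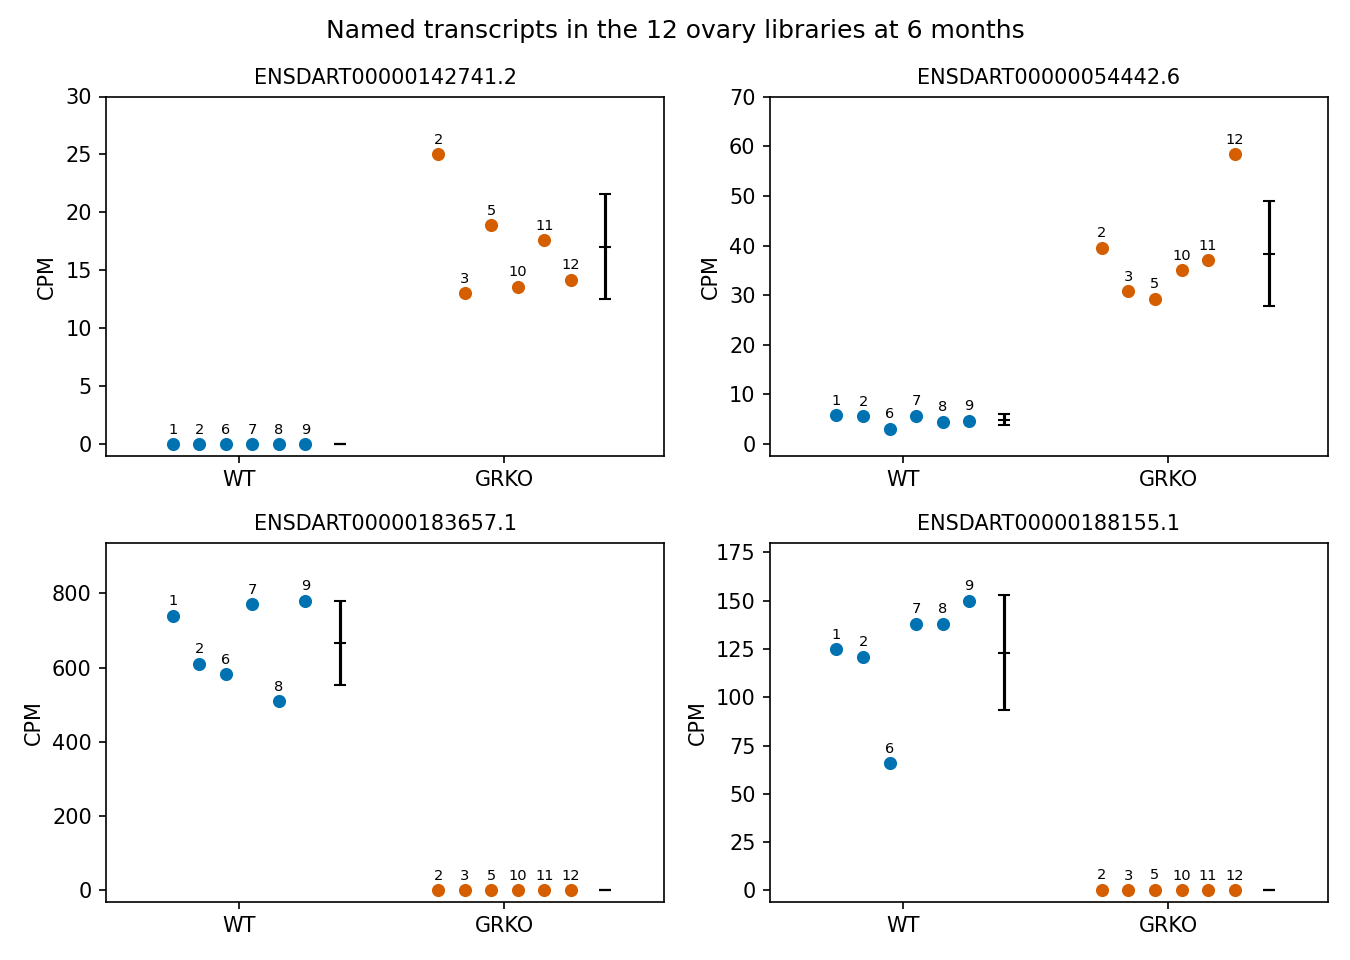
Each point is 1 ovary library at 6 months, marked with its library number, and its level of the transcript named above the panel (y axis, CPM) in WT (blue) and GRKO (orange). Black bars give mean ± SD of 6 libraries. Upper panels show the 2 transcripts higher in GRKO and lower panels the 2 lower in GRKO, and no panel has overlap between the genotypes.

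All 4 of these had fractional estimated counts in 6 to 12 of the 12 libraries, which the counting tool gives where reads match more than 1 transcript, so part of a fold may be reads assigned to another transcript. Whether this played a part was not tested for them. Over all tested transcripts, 3827 had whole estimated counts in all 12 libraries, and 225 of these (5.88%) were called, 84 higher and 141 lower. Without GRKO libraries 10 and 12 the calls among them were 28 higher and 53 lower. Of the 22730 with fractional counts 1155 (5.08%) were called.

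The number of calls, but not the sign of the called folds, moved with single libraries. Leaving out 1 library gave between 850 calls (without GRKO library 10) and 1578 calls (without GRKO library 3). It also fell to 859 without WT library 6 and to 901 without GRKO library 11. The higher calls alone fell to 351 without WT library 6 or GRKO library 10, 354 without GRKO library 11, 357 without GRKO library 2 and 371 without WT library 8. In each of these 12 fits all 1380 transcripts kept the sign of their fold change, and 752 to 1153 of them were called again. The 1380 were chosen on the same libraries, so the kept signs follow largely from the choice and are a description. Without WT libraries 1 and 2 the balance of directions turned, as it did by a narrow margin with a filter of 1 CPM in 6 libraries (674 higher, 666 lower). Without these 2 WT libraries there were 1038 higher and 936 lower among 1974 calls, of which 1019 were among the 1380.

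**Figure D5:**
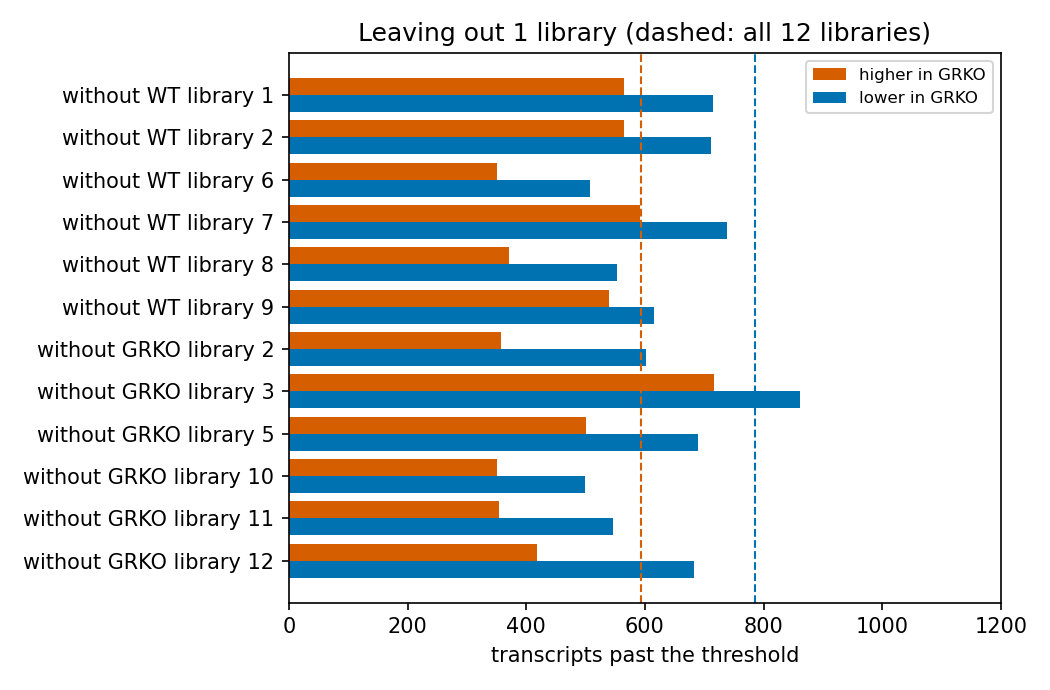
Bars give the number of transcripts called higher (orange) or lower (blue) in GRKO (x axis) when the library named on the y axis was left out. Dashed lines mark 594 higher and 786 lower calls with all 12 libraries, and lower calls outnumber higher ones in each of the 12 fits.

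By the biological coefficient of variation, spread between libraries was of similar size in the genotypes. It rested partly on WT libraries 1 and 2 and GRKO libraries 10 and 12. This coefficient, the relative spread between libraries beyond counting noise, was 0.536 in WT and 0.515 in GRKO (n = 6 each). It was 0.487 without WT libraries 1 and 2 and 0.432 without GRKO libraries 10 and 12. Pair by pair the genotypes were less alike. The chi-square of counts per degree of freedom ran from 30.4 to 90.3 within WT and from 29.1 to 211 within GRKO. GRKO pairs without libraries 10 and 12 reached 45.7 at most.

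The make-up of the libraries as a whole showed no difference past the test. A WT library held 20911 ± 715 transcripts at 1 CPM or more and a GRKO library 20015 ± 770 (SD, n = 6 each), and the ranges of 20230 to 22018 and 18916 to 20826 overlapped (two-sided exact permutation test, p = 0.0693, adjusted over 3 measures p = 0.208). The 100 most abundant transcripts took 24% ± 1.18 of the counts in WT and 23.5% ± 1.92 in GRKO (n = 6 each, exact permutation p = 0.6, adjusted p = 0.6). The effective number of transcripts, the number of equally abundant ones that would be as diverse, was 4631 ± 266 and 4447 ± 547 (n = 6 each, exact permutation p = 0.489, adjusted p = 0.6). The smallest p that 6 against 6 libraries allow is 0.00216, and these p-values do not show that the genotypes were alike.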

How the data were processed

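The deposited values are estimated counts per transcript; the submitters' processing notes name kallisto 0.48.0 and the build GRCz11. Such a tool splits reads that match several transcripts between them. The sources used here give no annotation release, strand setting or read filter. Estimated counts were rounded and tested with edgeR 4.0.16 in R 4.3.3 (quasi-likelihood test, robust estimation, TMM scaling, default filter at 10 counts, and 15 in total) on the 12 libraries of 6 months, where earlier work on these data used all 23. Tested transcripts held 97.77% to 99.84% of each library. Benjamini-Hochberg adjustment ran over all tested transcripts. Standard errors were taken from the fold change (log2) and the root of F. Principal components and correlations used log2 CPM with a prior count of 2. Library measures used each library's own total and exact permutation tests. Values at 3 months come from a common scaling of 23 libraries.

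Libraries of the same group were compared pair by pair, and the lowest chi-square, per degree of freedom, was 29.1, so none was taken for a repeat deposit of another; this does not show that they came from separate fish. Per direction, the transcript with the largest fold (called, 1 CPM or more on average, all GRKO libraries beyond the WT median) and the one with the smallest p (counted in all 12 libraries, 10 CPM or more, no overlap) were named. The comparison, classes and naming rule were chosen with earlier results of these data known. Gene lists could not be applied to transcript identifiers. Alternatives were other scalings, filters and tools (DESeq2 1.42.0, limma 3.58.1 with voom), thinned counts, all 23 libraries and left-out libraries. Figures used matplotlib 3.10.9 in Python 3.11.15.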

Additional observations from a re-analysis of the deposited data

Results flagged for a closer look

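Among 20 sets of 6 libraries checked for a value far from the others, 3 were flagged, and chance flags about 1 in 20. WT library 1 had an effective number of transcripts of 4124, where the other WT libraries lay between 4619 and 4887. GRKO library 12 had 58.4 CPM of ENSDART00000054442.6, where the other GRKO libraries lay between 29.3 and 39.6 CPM. WT library 6 had 65.9 CPM of ENSDART00000188155.1, where the other WT libraries lay between 121 and 150 CPM.

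Transcripts outside the test held 2.24% of the counts in GRKO library 10 and 2.02% in GRKO library 12, against 0.163% to 0.578% in the other 10 libraries, WT included.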

How the results depend on the processing

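Of 24 alternatives, 17 gave a count of calls within 1.5 times of 1380. DESeq2 called 3344 transcripts (1622 higher, 1722 lower), which held all 1380, and limma voom called 2350 (1166 higher, 1184 lower), which held 1229. Only transcripts with whole counts gave 359 (160 higher, 199 lower) out of 3838 tested, where the main fit called 225 of 3827 such transcripts. With so few tested, this alternative could hardly reach a count near 1380. Leaving out GRKO libraries 10 and 12 gave 562 (203 higher, 359 lower), and leaving out WT libraries 1 and 2 gave 1974 with 1038 higher. Leaving out 1 library gave 850 to 1578 calls, 351 to 716 higher and 499 to 862 lower. The fit on all 23 libraries, with 30849 tested, called 1865, of which 1085 were among the 1380. RLE and upper-quartile factors moved the share of higher calls from 43% to 43.5% and 43.9%, and a filter of 1 CPM in 6 libraries to 50.3% (674 higher, 666 lower). The causes of these changes were not tested. The 4 named transcripts kept their direction and passed the test in all 23 alternatives that could be run for them, with adjusted p of 0.00182 or less. They were picked on the same libraries, so this is no independent support. The 3 library measures did not pass in any alternative. No paired analysis was possible because the labels give no pairing of WT with GRKO libraries, and library numbers are not said to mark pairs. Small folds under 1 CPM are set against the largest spread, a median SD of 0.807 in WT and 0.74 in GRKO (log2 CPM). The part of counting noise in this spread was not tested.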
